A study of Drosophila melanogaster with 10 samples.

Results

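The ImpE and ImpL genes of *Drosophila*, ImpE1, ImpE2, ImpE3, ImpL1 and ImpL2, were examined in mushroom body neurons at the start of metamorphosis. Members were taken by name: every probe set to which the platform annotation gives exactly one of these 5 symbols, which came to 7 of 13966 probe sets. ImpE1 and ImpE3 have 2 probe sets each, and ImpE2, ImpL1 and ImpL2 have 1 each. The family was chosen by a reading of these same arrays, in which an ImpE1 probe set was already known to be higher at 5 h than at 0 h after puparium formation. The 5 h and 0 h values of all 7 probe sets are therefore given as a description, without a test.

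All samples, at both ages, carried 1 copy of the driver OK107-GAL4 in a yw/w background. It drove UAS-mCD8::GFP, a membrane-bound green fluorescent protein, and UAS-EcRB1[W650A], an ecdysone receptor (EcR) that acts as a dominant negative and is abbreviated EcRDN, in mushroom body neurons. Labelled cell bodies were laser-captured from frozen sections, with 40 captures of about 100 cell bodies pooled per replicate, and the RNA was amplified in 2 rounds before hybridisation to Affymetrix Drosophila Genome arrays. The arrays comprised 3 replicates at 5 h and 6 at 0 h, and 1 more whose title says 5 h and whose age label says 0 h and which enters no comparison. The y,w animals that the design names as the comparison were not analysed here, so no value below separates an effect of the dominant negative receptor from an effect of age.

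Ecdysone is the steroid hormone that drives molting and metamorphosis in insects. It binds a heterodimer of EcR and usp, which switches on a small set of early regulators, and these in turn act on later genes. The Imp genes were found as transcripts on membrane-bound polysomes of imaginal discs, the larval primordia of adult appendages, that are induced by the hormone early (ImpE) or late (ImpL). Such polysomes are where secreted and membrane proteins are made. In mushroom body neurons the same hormone, acting through EcR, triggers pruning of the larval axon branches shortly after puparium formation.

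ImpE1 was the member with a separation between the ages, and in 1 of its probe sets only. Probe set 148398_at averaged 6.59 ± 0.21 at 5 h (log2 signal, SD, n = 3) and 4.97 ± 0.37 at 0 h (SD, n = 6), a level 3.07-fold higher at 5 h. None of the other 6 probe sets separated the ages, and all of these averaged slightly lower at 5 h, by log2 differences (5 h minus 0 h) of -0.32 to -0.03. Of the 5 genes, ImpE1 and ImpL2 had a probe set above background on all 9 arrays. Background is taken here as 3.73 on the log2 scale, the highest value of 8 control probe sets for mouse and yeast sequences. In pooled captures such as these, fewer cells that express a gene and less RNA per cell cannot be told apart.

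ImpE1 encodes a protein with cysteine-rich repeats like those of the low-density lipoprotein receptor. At 5 h its probe set 148398_at read 6.67, 6.75 and 6.36 in replicates 1, 2 and 3. At 0 h it read 5.21, 5.31, 5.29, 4.38, 4.73 and 4.92 in replicates 1 to 6. All 3 arrays at 5 h thus lay above all 6 arrays at 0 h. The lowest array at 5 h read 6.36 and the highest at 0 h read 5.31. Of all probe sets, 9.79% had ages that did not overlap, in either direction. The log2 difference was 1.62 (SE 0.20, from limma fitted over all probe sets). With the threshold at a Benjamini-Hochberg adjusted p of 0.05, this fit called 1.25% of all probe sets, 1.01% as higher and 0.236% as lower at 5 h. It called 1 of the 7 ImpE and ImpL probe sets, 148398_at, as higher. Because the contrast is the one in which the family was picked, nothing is read from that count. It was 0 (1 at an unadjusted p below 0.05) when the array with conflicting labels was counted as 0 h.

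**Figure D1:**
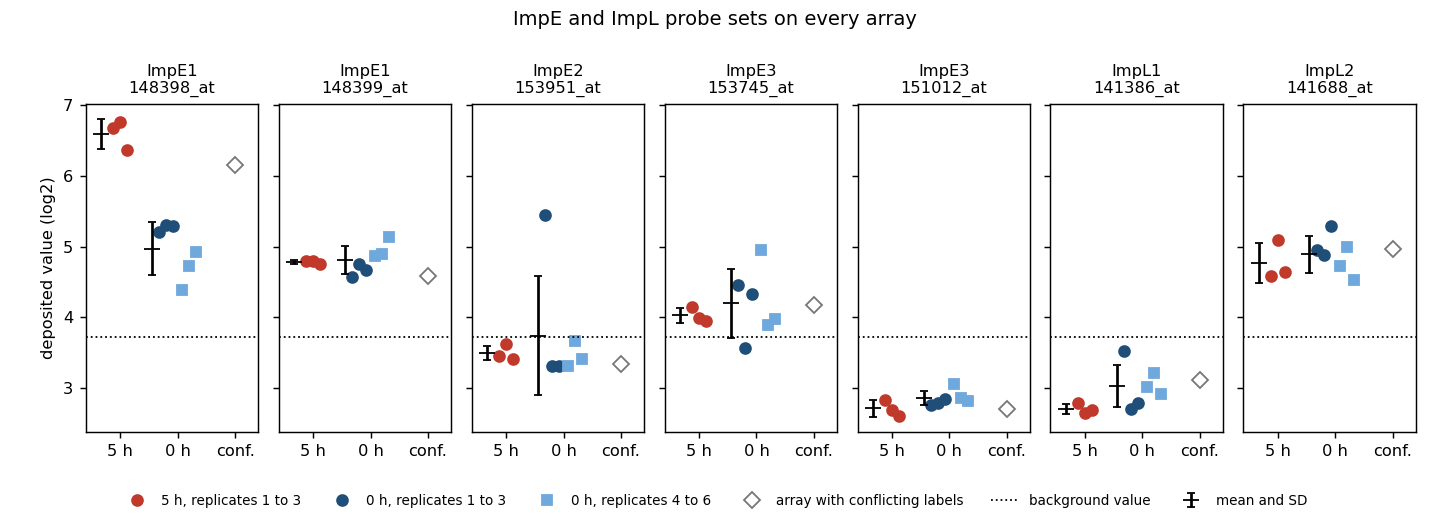
Deposited log2 value (vertical axis) of each of the 7 ImpE and ImpL probe sets on every array, with 5 h left of 0 h in each panel and the array with conflicting labels (conf.) at the right as an open diamond. Bars are means and SD (n = 3 at 5 h, n = 6 at 0 h) and the dotted line is the background value of 3.73; only ImpE1 148398_at has 5 h arrays (6.36 to 6.75) clear of all 0 h arrays (4.38 to 5.31).

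The second ImpE1 probe set, 148399_at, did not show this. It read 4.80, 4.80 and 4.75 in the 5 h replicates, and 4.57, 4.75, 4.67, 4.86, 4.90 and 5.13 in the 0 h replicates 1 to 6. The 5 h arrays fell inside the 0 h range, and the difference was -0.03 (log2, SE 0.13). The gap between the probe sets, 148398_at minus 148399_at within an array, was 1.61 to 1.95 at 5 h and -0.48 to 0.64 at 0 h, so the gap was 1.65 wider at 5 h on average. Both probe sets were above background on all arrays. RefSeq lists CG13668, CG32356 and CG7116 as synonyms of ImpE1, so the gene now covers what were separate numbered gene models; which of them, or which end of the transcript, each probe set reads was not analysed here.

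The 0 h arrays were themselves not uniform for ImpE1. Replicates 1 to 3 read 5.21 to 5.31 with 148398_at, and replicates 4 to 6 read 4.38 to 4.92. With 148399_at the order of these sets was the opposite, 4.57 to 4.75 in replicates 1 to 3 and 4.86 to 5.13 in replicates 4 to 6. The median of all probe sets on an array was 4.31 to 4.35 in the first of these sets and 4.38 to 4.44 in the other, and the labels name no batch. Set against 0 h replicates 1 to 3, the difference of 148398_at was 1.32 (2.5-fold higher at 5 h), and against replicates 4 to 6 it was 1.91 (3.77-fold higher). For 148399_at the corresponding differences were 0.12 and -0.18, which differ in sign.

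**Figure D2:**
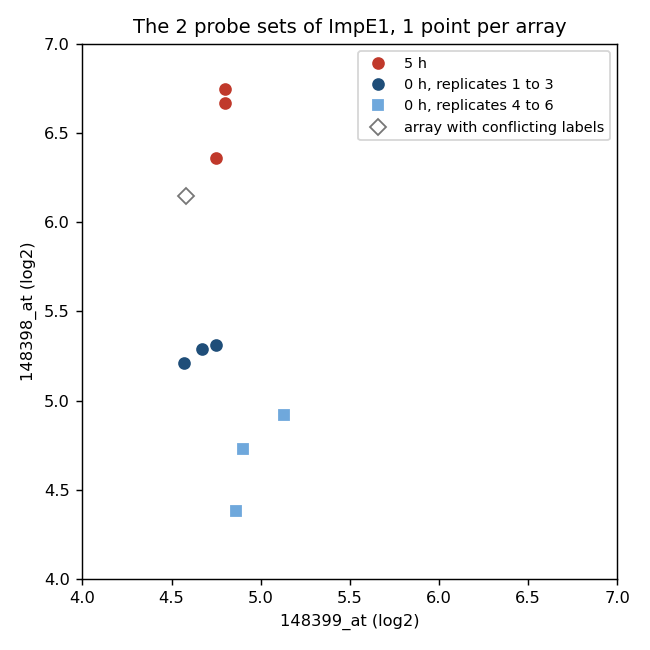
Log2 value of ImpE1 probe set 148398_at (vertical axis) against that of 148399_at (horizontal axis), with 1 point per array. The 5 h arrays stand apart along the vertical axis, between 6.36 and 6.75, while along the horizontal axis, between 4.75 and 4.80, they lie among the 0 h arrays.

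Other measures differed between the ages along with ImpE1. The actin control probe sets, which read more strongly at the 3' than at the 5' end where RNA or its amplified copy is short, had a gap of 8.47 to 8.63 at 5 h and 7.45 to 8.10 at 0 h (log2). The same gap of the GAPDH controls did not separate the ages, with 5.49 to 5.64 at 5 h and 4.36 to 5.66 at 0 h. The summed linear signal of glial markers (13 of 14 measured) was 1254 to 1267 at 5 h and 564 to 1244 at 0 h. The glial markers did not all read the same way: 8 read higher at 5 h and 5 lower, with log2 differences of -0.37 for Gs2, -0.27 for loco, -0.15 for Gli, -0.14 for gcm and -0.11 for moody. The glial markers repo and drpr were above background on all arrays, and Gli was at or below it on all arrays. Mushroom body markers (10 of 13 measured) summed to 4928 to 5211 at 5 h and 3283 to 4571 at 0 h, with sNPF at or below background throughout. Pan-neuronal markers (8 of 10 measured) summed to 708 to 779 and 583 to 680, with para and Rbp9 at or below background. Of the mushroom body markers, 7 read higher at 5 h and 3 lower (Dop1R1 -0.25, ey -0.10 and sNPF -0.07). Among the pan-neuronal markers, 5 read higher and 3 lower (cac -0.09, Rbp9 -0.03 and para -0.01). Linear sums weigh bright genes most, here 14-3-3zeta and rut of the mushroom body list (mean log2 values of 10.53 and 10.37). By gene, 3 glial markers (bdl, wun2 and nrv2), 2 mushroom body markers (toy and 14-3-3zeta) and 1 pan-neuronal marker (elav) rose in limma, and 0 fell, against 1.01% higher and 0.236% lower over all probe sets. The lists were chosen with earlier results of these data known, so nothing is read from these counts beside those shares. The glial marker repo did not pass (limma adjusted p = 0.25). At an unadjusted p below 0.05 there were 6 glial genes, of which Gs2 read lower, 3 mushroom body and 2 pan-neuronal genes. Over all 13966 probe sets, 2051 had an unadjusted p below 0.05. With the conflicting array as 0 h, or with the actin gap as a covariate, 0 of all 13966 probe sets passed in limma (1693 and 552 at an unadjusted p below 0.05), so these calls were lost too. The smallest adjusted p among them was that of the glial adhesion gene bdl, 0.00068 in limma, with 6.26 ± 0.20 at 5 h and 4.42 ± 0.28 at 0 h (SD). The log2 differences of the other 5 were 1.90 for wun2, 1.28 for nrv2, 1.06 for toy, 0.66 for 14-3-3zeta and 0.86 for elav.

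Markers of other tissues near the brain were summed in the same way. Hemocyte markers (7 of 8 measured) summed to 151 to 195 at 5 h and 106 to 146 at 0 h, although Hml, srp, eater, NimC1 and Sr-CI were at or below background on all arrays. Fat body markers (5 of 10) summed to 879 to 1651 at 5 h and 536 to 2634 at 0 h, and ring gland markers (4 of 8) to 97.5 to 107 and 97 to 121, with jhamt at or below background. Salivary gland markers (9 of 10) summed to 140 to 158 at 5 h and 153 to 1347 at 0 h, where the highest was replicate 2, with Sgs3, Sgs4 and Sgs5 at or below background. The highest 0 h values on this list were those of Eig71Ea (10.01, log2) and Eig71Eg (7.37), while no Sgs gene read above 5.74 at 0 h. Both Eig71E genes are also on the list of ecdysone response genes below. Of these lists 0 genes passed in limma, with 1 hemocyte, 1 fat body, 1 salivary gland and 0 ring gland genes at an unadjusted p below 0.05. Of all 13966 probe sets, 2051 met that unadjusted level. The part of these measures in the ImpE1 difference was not tested. The actin gap separates the ages completely, so in these arrays it and age cannot be told apart. The same limit holds for the glial, mushroom body, pan-neuronal and hemocyte sums. Each of these was higher on every 5 h array than on any 0 h array, the glial sum narrowly (lowest 1254 against highest 1244). With the actin gap as a covariate, the ImpE1 148398_at difference was 1.16 (log2, SE 0.38), and 0 of the 7 probe sets were called by limma (2 at an unadjusted p below 0.05). With the GAPDH gap as a covariate, added after seeing the data, it was 1.79 (SE 0.20) and 148398_at was called.

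**Figure D3:**
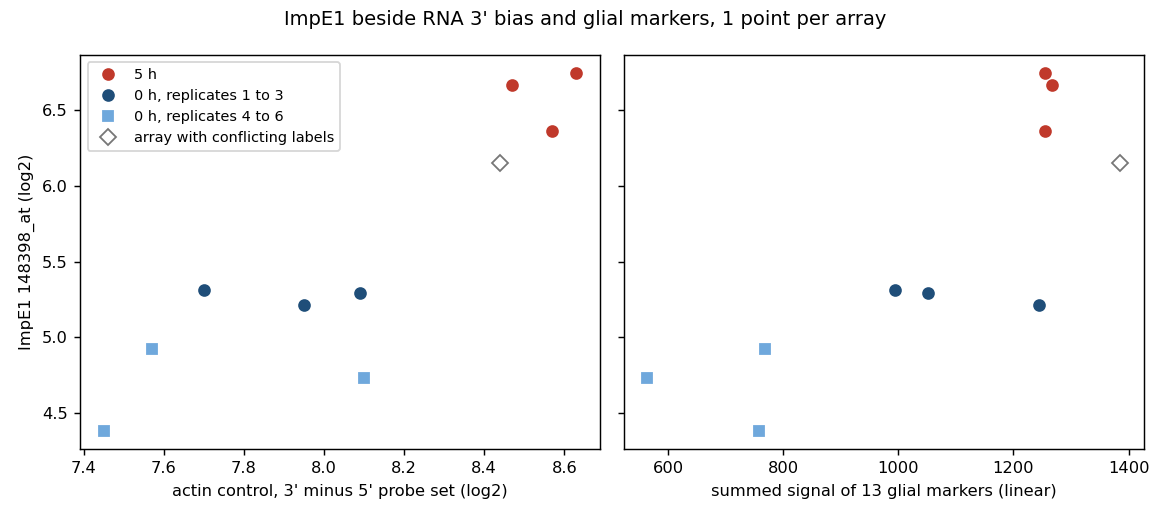
ImpE1 148398_at (log2, vertical axis) against the actin 3' minus 5' control gap (log2, left) and the summed linear signal of 13 glial markers (right), 1 point per array. The 5 h arrays are the highest of the 9 grouped arrays on every axis, with actin gaps of 8.47 to 8.63 and glial sums of 1254 to 1267; the array with conflicting labels lies beyond the glial sums of the 5 h arrays.

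By a rule on profile shape, the probe sets with the smallest root mean square difference from ImpE1 148398_at over the 9 arrays, after each was centred on its own mean, were those of mre11, Lip4 and mRpS25. The gene mre11 encodes a nuclease of DNA break repair. Its root mean square difference from ImpE1 was 0.22 on the log2 scale, and it read 6.64, 6.49 and 6.87 at 5 h, against 5.50, 5.42, 5.30, 4.47, 4.90 and 5.30 at 0 h. Lip4, a lipase gene, was at a distance of 0.25, with means of 7.28 ± 0.20 at 5 h and 6.03 ± 0.21 at 0 h (SD, n = 3 and n = 6). The mitochondrial ribosomal protein gene mRpS25 was at 0.28, with means of 6.27 ± 0.27 and 5.14 ± 0.32 at 5 h and 0 h. In mre11 and mRpS25, as in ImpE1, the lowest array was 0 h replicate 4, and in Lip4 the lowest were 0 h replicates 4 and 5 (5.80 in each). These genes were picked for their likeness to ImpE1 over the same arrays, so nothing is read from this.

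ImpE2 encodes a protein that disc epithelial cells release at their apical side. Probe set 153951_at read 3.46, 3.62 and 3.42 at 5 h, all below the background value of 3.73. At 0 h it read 5.44 in replicate 1 and 3.31, 3.31, 3.31, 3.67 and 3.42 in replicates 2 to 6. The gene was thus above background on 1 of 9 arrays, and the 0 h mean of 3.74 ± 0.84 (SD, n = 6) rests on that array. Its difference of -0.24 (log2, SE 0.40, 5 h mean 3.50 ± 0.10) became 0.10 without 0 h replicate 1 and 0.23 with the GAPDH gap as a covariate, so no direction can be given, and with 5 h means in the background no fold is given.

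In 0 h replicate 1, ImpE2 was the feature that stood out most: it lay 1.77 above the highest of the other 8 arrays, the widest such gap of all 13966 probe sets on that array and the only one of at least 1.5. The genes most like it over the 9 arrays were looked up after this value was seen. Ilp2, an insulin-like peptide made by neurosecretory cells of the brain, was the closest (root mean square difference 0.27). It read 5.19 in 0 h replicate 1 and at most 3.81 elsewhere, with 3.49, 3.45 and 3.57 at 5 h. Gasp, a chitin-binding protein of tracheae and cuticle, was next (0.30), reading 4.26 in 0 h replicate 1 and at most 2.99 on the other arrays. CG2614 was at a distance of 0.37, with 5.70 in that array and at most 4.98 elsewhere. The 13 of 14 imaginal disc and epidermis markers measured, which include Gasp, summed to 343 to 360 (linear) at 5 h and 354 to 416 at 0 h, where 0 h replicate 1 had the highest sum, 416, and the next array 411. Of these markers ect, grh and sha were at or below background on all arrays, and 0 of the 13 passed in limma. Of the 13, 2 read higher at 5 h and 11 lower, and the list median was -0.20, against -0.07 over all probe sets. At an unadjusted p below 0.05 there were 4 of the 13 (verm, kkv, knk and Cpr49Ac, all lower at 5 h), and 2051 of all 13966 probe sets. This list was chosen with earlier results of these data known, so nothing is read from these counts. The largest differences among the 13 were -0.64 for the chitin deacetylase gene verm (limma adjusted p = 0.33) and -0.59 for the cuticle protein gene Cpr49Ac (adjusted p = 0.21). The part of other captured cells in the ImpE2 value was not tested.

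**Figure D4:**
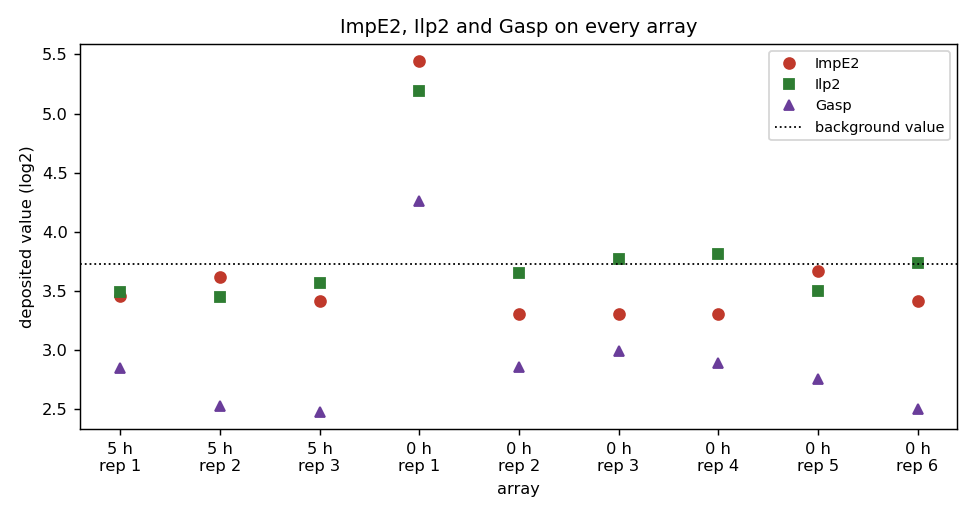
Log2 values (vertical axis) of ImpE2, Ilp2 and Gasp on the 9 grouped arrays (horizontal axis), with the background value of 3.73 as a dotted line. In 0 h replicate 1 they read 5.44, 5.19 and 4.26, their highest values; the other ImpE2 values lie below the line.

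ImpE3 is a disc gene of the same early class. Its probe set 153745_at read 4.15, 3.99 and 3.95 at 5 h, against 4.46, 3.57, 4.33, 4.95, 3.90 and 3.98 at 0 h. It was above background on all 5 h arrays and on 5 of 6 at 0 h. The means were 4.03 ± 0.11 at 5 h and 4.20 ± 0.49 at 0 h (SD), with a difference of -0.17 (log2, SE 0.24), and the 5 h values lay within the wider range at 0 h. The other probe set, 151012_at, read 2.61 to 2.84 at 5 h and 2.77 to 3.06 at 0 h, below background on all 9 arrays, and so gives no level. The ImpE3 probe sets thus disagree in whether the transcript read above background. RefSeq names CG11046 and CG2723 as synonyms of ImpE3 and gives the gene a span that overlaps that of CG2747, whose own probe set had a difference of 0.12 (SE 0.14). Whether the ImpE3 probe sets could also read that neighbour was not analysed here.

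ImpL1, of the late class, was not above background. Probe set 141386_at read 2.79, 2.65 and 2.69 at 5 h, against 3.53, 2.71, 2.80, 3.02, 3.21 and 2.92 at 0 h, and every value lay below 3.73. The lower 5 h mean (2.71 ± 0.07, against 3.03 ± 0.30 at 0 h, SD) is a difference among values in the background, and no fold is given. As with ImpE2, the highest array was 0 h replicate 1.

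ImpL2 encodes a secreted immunoglobulin-domain protein that binds insulin-like peptides and restrains growth by insulin signalling in flies. Its probe set 141688_at was above background on all 9 arrays. It read 4.58, 5.09 and 4.64 at 5 h, against 4.95, 4.88, 5.29, 4.72, 4.99 and 4.53 at 0 h. The ages overlapped over most of their range, with means of 4.77 ± 0.28 at 5 h and 4.89 ± 0.26 at 0 h (SD, n = 3 and n = 6) and a difference of -0.12 (log2, SE 0.17). Against 0 h replicates 1 to 3 the difference was -0.27 and against replicates 4 to 6 it was 0.02. With the actin 3' gap as a covariate it was -0.75 (SE 0.26), and with the GAPDH gap -0.07 (SE 0.19). RefSeq gives ImpL2 a span that overlaps that of CG46460, which had no probe set with a single symbol. Whether the ImpL2 probe set could also read that neighbour was not analysed here.

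The proteins that ImpL2 works with, and those that relay the insulin signal, were measured in 9 of 17 cases from a fixed list. Of the 9, 0 passed the limma threshold. At an unadjusted p below 0.05 there was 1, Ilp8, against 2051 of all 13966 probe sets. Of the 9, 1 read higher at 5 h, and the list median was -0.16, against -0.07 over all probe sets. Those with the largest differences were Ilp2, described above (limma adjusted p = 0.49), and the insulin receptor gene InR, with means of 3.35 ± 0.10 at 5 h and 3.71 ± 0.40 at 0 h (SD; adjusted p = 0.43). Both InR means are below background.

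Of 35 other ecdysone response genes on a fixed list, 24 had a probe set with a single symbol. In the limma fit 1 of the 24 rose, 1 fell and 22 did not pass, against 1.01% higher and 0.236% lower over all probe sets. This list too was chosen with earlier results of these data known, so nothing is read from the counts. The gene br, an early ecdysone target that encodes the Broad zinc finger factors, rose in its brightest of 3 probe sets, with means of 8.59 ± 0.04 at 5 h and 7.85 ± 0.27 at 0 h (SD; limma adjusted p = 0.041). Sox14, a direct target of EcR that is needed for pruning, fell to 5.83 ± 0.24 at 5 h, against 6.59 ± 0.18 at 0 h (SD; adjusted p = 0.028). Leaving out any array at 5 h, or 0 h replicate 2 or 6, left 0 of the 24 called by limma (2 to 6 at an unadjusted p below 0.05); leaving out 0 h replicate 3 left br, and leaving out replicate 4 or 5 left Sox14. When the probe sets of each gene were averaged, Sox14 passed and br did not. The receptor genes EcR (limma adjusted p = 0.70, the brighter of 2 probe sets) and usp (adjusted p = 0.57) differed by -0.13 and -0.16. Whether the EcR probe set also reads RNA of the UAS-EcRB1[W650A] transgene was not analysed here.

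The median difference of the 24 genes was -0.21 and that of the 7 ImpE and ImpL probe sets -0.14, against -0.07 over all probe sets. Of the 24, 5 read higher at 5 h and 5 (Hr38, Hr39, ftz-f1, Eip93F and Cyp18a1) were at or below background on all arrays. The gene Ldh, formerly ImpL3, is a late member of the same class that encodes lactate dehydrogenase; it had no probe set with a single symbol and was not analysed here. Of the disc eversion and apical matrix genes, which act in the tissue where the Imp genes were found, 11 of 18 were measured and 0 passed in limma (1, msn, at an unadjusted p below 0.05). That unadjusted level was met by 2051 of all 13966 probe sets. The kinase gene msn had the largest difference, with 5.19 ± 0.31 at 5 h and 4.51 ± 0.21 at 0 h (SD; adjusted p = 0.065), and puc, a phosphatase gene of the same pathway, differed by 0.22 (adjusted p = 0.70).

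**Figure D5:**
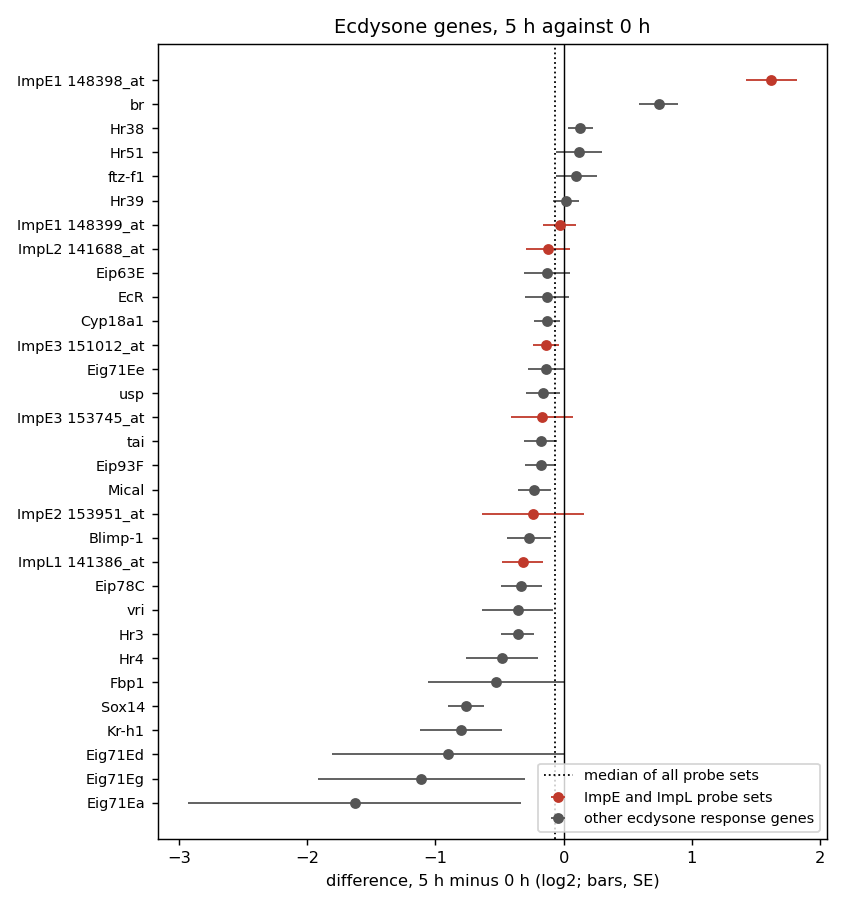
Log2 difference, 5 h minus 0 h (horizontal axis, bars are SE from limma), of the 7 ImpE and ImpL probe sets (red) and 24 other ecdysone response genes (grey), ordered by size. ImpE1 148398_at stands at 1.62 and br at 0.74, while the other ImpE and ImpL probe sets lie between -0.32 and -0.03, near the median of all probe sets (dotted, -0.07).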

How the data were processed

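Per the submitters' processing notes, the authors summarised each array with RMA in Affymetrix Expression Console. The deposited values are log2 probe set signals. Which arrays were normalised together is not stated, and the column medians of the 9 grouped arrays ran from 4.30 to 4.44. Arrays give no read depth, so their number limits the precision, and the labels' biological replicates are pooled captures.

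Of 14010 probe sets, 44 Affymetrix controls were left out and 13966 tested. Names came from the platform annotation, in which 12443 probe sets have 1 symbol, 327 several and 1196 none, and RefSeq gene identifiers gave 0 new symbols. Coordinates are not printed, since no build is named. No 2 arrays held the same values (smallest SD of a difference 0.17).

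The 5 h and 0 h arrays were compared by limma's moderated two-sided test (version 3.58.1, R 4.3.3), with no filter, p-values adjusted by Benjamini-Hochberg across the 13966 probe sets, and a threshold of 0.05; the code was tested on simulated data. Summaries used Python 3.11.15. For genes on lists, the brightest probe set over the 9 arrays stood for the gene. Named genes were all member probe sets, and in each of 11 lists up to 4 genes past the threshold or, where there were none, the 2 with the largest differences. Fat body, salivary gland, hemocyte and ring gland genes are given as sums, with values printed only for Eig71Ea, Eig71Eg and the Sgs genes. For members above background with an SD over arrays of at least 0.5, the 3 most alike genes were named. The members and lists were chosen with earlier results of these data known.

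Alternatives were both ages for the array with conflicting labels, a filter on dim probe sets, quantile normalisation, median centring, each set of 3 arrays at 0 h, the actin 3' gap as a covariate, replicate blocks, array weights, averaging within genes and each array left out. Setting low values to the background and the GAPDH 3' gap as a covariate were added after seeing the data.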

Additional observations from a re-analysis of the deposited data

Results flagged for a closer look

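At 0 h, ImpE2 read 5.44 in replicate 1, far from the other 5 arrays at that age (3.31 to 3.67); the gap was 0.83 of the whole range, where Dixon's test sets 0.625 for 6 arrays. ImpE3 probe set 151012_at read 3.06 in 0 h replicate 4, against 2.77 to 2.87 in the other 0 h arrays (0.66 of the range), with all values below background. Chance flags about 1 in 20 groups, and 7 groups of 6 arrays were examined. On the array whose labels name both ages, ImpE1 148398_at read 6.15. That is above all 6 arrays at 0 h (highest 5.31) and below all 3 at 5 h (lowest 6.36), and it assigns the array to neither age.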

How the results depend on the processing

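The difference of ImpE1 148398_at, 5 h minus 0 h, was positive under all 21 alternatives run, from 1.16 with the actin 3' gap as a covariate to 1.91 against 0 h replicates 4 to 6, and from 1.5 to 1.74 with single arrays left out. Its call was kept under 18 of 20; with the conflicting array as 0 h, and with the actin covariate, 0 of the 7 member probe sets passed in limma (1 and 2 at an unadjusted p below 0.05). Leaving out single arrays gave 1 call each time. The family was picked in this same contrast, so nothing is read from how often the call was kept. The actin covariate also moved 148399_at to 0.22, ImpE2 to -0.96, ImpE3 151012_at to 0.02 and ImpL2 to -0.75; the cause was not tested. Setting low values to the background put ImpE3 151012_at and ImpL1 at 0.00 by construction. With single arrays left out, 148399_at ranged from -0.08 to 0.03, ImpE2 from -0.33 to 0.10, ImpE3 153745_at from -0.30 to -0.02, 151012_at from -0.21 to -0.09, ImpL1 from -0.39 to -0.22 and ImpL2 from -0.28 to -0.03. Over all probe sets 174 passed (141 higher, 33 lower; 153 and 101 after quantile normalisation). The count was 0 with the conflicting array as 0 h (1693 at an unadjusted p below 0.05) and 0 with the actin covariate (552), 1371 with the GAPDH 3' gap as a covariate (added after seeing the data), 352 with that array as 5 h, 1132 against 0 h replicates 1 to 3, 3077 against replicates 4 to 6, 1809 with array weights, 743 with a replicate block, and 19 (without 5 h replicate 3) to 395 (without 0 h replicate 1) with single arrays left out. Of the 24 ecdysone response genes 2 passed; 0 did with the conflicting array as 0 h or the actin covariate (4 and 3 at an unadjusted p below 0.05), 1 after quantile normalisation, median centring or averaging a gene's probe sets (Sox14 each time), 4 against 0 h replicates 1 to 3, with array weights or with a replicate block, 5 with the GAPDH covariate, 8 against replicates 4 to 6, and 0 to 2 with single arrays left out. Same-numbered arrays did not deviate together (correlations across probe sets -0.333, -0.133 and -0.233), so the numbers are not taken as pairs. Replicate numbers here are those of the sample descriptions, and the titles number the 5 h arrays otherwise. By the titles, 5 h replicate 1 would go with 0 h replicate 2 (0.193) and 5 h replicate 2 with 0 h replicate 3 (0.049). The replicate block changed no member's call, and ImpE1 148398_at was 1.32 with it. No 5 h array shares a number with 0 h replicates 4 to 6, so the block compares 5 h with 0 h replicates 1 to 3 only. The members' differences equal those against replicates 1 to 3, so the block is not a separate check. ImpL1 and ImpE3 151012_at lay below background on all 9 arrays and ImpE2 on 8 of them, which limits what their differences show. The filter on dim probe sets kept those with a mean above 3.43, the highest mean of the mouse and yeast controls. That cutoff is below the background value of 3.73. It left out ImpL1 and ImpE3 151012_at and kept ImpE2 (mean 3.66).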

Other observations

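The array whose labels name both ages gave the following for the other members: 4.58 for ImpE1 148399_at, 3.34 for ImpE2, 4.17 for ImpE3 153745_at, 2.71 for ImpE3 151012_at, 3.12 for ImpL1 and 4.97 for ImpL2. Its actin 3' gap was 8.44 and its glial sum 1385, against glial sums of 1254 to 1267 at 5 h and 564 to 1244 at 0 h.

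The protein-coding genes that RefSeq (Release 6) places next to the members were looked up after the members' values were seen, and 8 of 10 had a probe set with a single symbol. On one side of ImpE1 lies Idh, an isocitrate dehydrogenase gene, which averaged 9.31 ± 0.05 at 5 h and 8.68 ± 0.34 at 0 h (SD, n = 3 and n = 6) and did not pass (limma adjusted p = 0.12), although its ages did not overlap. On the other side lies the protease gene Jon66Ci, with 4.16 ± 0.10 and 4.30 ± 0.19 (adjusted p = 0.59). Next to ImpE2 lies another ecdysone-induced gene, Eip63E, with 4.83 ± 0.17 at 5 h and 4.96 ± 0.34 at 0 h (adjusted p = 0.73), above background on all 9 arrays where ImpE2 was above it on 1. The cuticle protein gene Cpr64Ad beside ImpL2 read 4.61 ± 0.13 and 4.86 ± 0.20 (adjusted p = 0.40). CG14107 and CG14110, on either side of ImpL1, had 5 h means of 3.26 and 3.33 and 0 h means of 3.27 and 3.72, all below the background value of 3.73. By array, CG14110 was above background on 3 of 6 at 0 h (highest 4.40) and on 0 of 3 at 5 h.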
